A study of Nothobranchius furzeri with 12 samples.

Results

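The genes for the proteins of the mitochondrial ribosome were followed in the retina and attached retinal pigment epithelium (RPE) of ageing male turquoise killifish, Nothobranchius furzeri. They were the entries of the deposited count table whose name starts with mrpl or mrps followed by a digit and whose reads summed to at least 120 over 12 libraries. All 74 names of this form met the minimum, out of 25122 genes, and the lowest total was 2414 reads. By name, 46 belonged to the large subunit (mrpl) and 28 to the small subunit (mrps). There were 4 age groups (1.5 months, 3.0 months, 4.5 months and 6.0 months), each of 3 fish sequenced separately. All fish, at every age, were untreated males of a mutant line backcrossed to the short-lived GRZ strain, so no group is plain GRZ. Which gene is mutated, and which fish carried the mutation, is not given in the sources used here.

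Mitochondria keep a small genome whose protein products are core subunits of the respiratory chain and of ATP synthase, and a ribosome of their own translates them. The proteins of that ribosome are all encoded in the nucleus, made in the cytosol and imported. The small subunit decodes the messenger RNA, and the large subunit joins the amino acids and feeds the new chain through an exit tunnel to the inner membrane. Photoreceptors, the most numerous cells of the retina, and the RPE are rich in mitochondria. The roles named here come from mammalian mitochondrial ribosomes or from their bacterial counterparts, not from killifish.

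Libraries held between 34437141 and 50268318 counted reads, and levels are CPM, each count divided by its library size and put on 1 common scale; library sizes were adjusted by TMM, a factor that evens out composition. Markers of the labelled tissue were abundant: 7 cone entries summed to between 16133 and 31294 CPM, 7 rod entries to between 3051 and 9645 CPM and 6 RPE entries to between 2344 and 8294 CPM. Some libraries stood apart. Lens markers, from a tissue dissected away, summed to 14547 CPM in replicate 1 at 6.0 months, 1948 CPM in replicate 1 at 4.5 months and 768 CPM in replicate 2 at 1.5 months, and to at most 62.6 CPM in the other 9. Replicate 1 at 1.5 months held 5089 CPM of surface epithelium markers, and 2 libraries of 4.5 months, replicates 2 and 3, have an unexplained "Resub" in their names. In bulk tissue, fewer cells of a type and less RNA per cell cannot be told apart.

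Most members lay a little lower at 6.0 months, but 0 of 74 passed an adjusted p of 0.05 in any of 6 tests with edgeR, in which 0.0193% to 2.78% of all tested genes passed. DESeq2 passed 0 to 6 members per test, where 2.22% to 15.4% of all tested genes passed. Between 6.0 and 1.5 months, 72 of 74 members had a log2 difference below 0, with a median of -0.26. The large subunit had 44 of 46 below 0 and a median of -0.28, and the small subunit 28 of 28 and a median of -0.25. Over all 20717 tested genes the median was -0.0051 and 50.6% lay below 0. Among the 14148 genes averaging at least 5 CPM, a level that 73 of the 74 members reached, the median was -0.037 and 55.3% lay below 0. One fish carried much of this: without replicate 2 at 6.0 months the members' median was -0.14 and 60 of 74 lay below 0. Library totals without TMM factors put the median of all tested genes at 0.17 and that of the members at -0.095, with 60 below 0; the members' distance from all tested genes was -0.26, against -0.25 with TMM.

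The summed levels describe the same pattern by age. Large subunit genes summed to 1443 ± 122 CPM at 1.5 months, 1320.1 ± 185 CPM at 3.0 months, 1440.3 ± 142 CPM at 4.5 months and 1192 ± 204 CPM at 6.0 months (mean ± SD, n = 3 each). Small subunit genes summed to 781 ± 67.3 CPM, 729 ± 113 CPM, 784 ± 87.9 CPM and 654 ± 102 CPM at the same ages. The mean was lowest at 6.0 months for 42 of 46 large and 25 of 28 small subunit genes. It was highest at 1.5 or 4.5 months for most: 22 large subunit genes peaked at each of these ages, and 9 small subunit genes peaked at 1.5 and 16 at 4.5 months. None had its highest mean at 6.0 months. These counts were not made over all tested genes. Replicate 2 at 6.0 months, where 64 of the 74 members had their lowest level, enters every 6.0-month mean. The large subunit sums were 1341, 959 and 1276 CPM at 6.0 months, against 1339, 1413.0 and 1576 CPM at 1.5 months, and replicate 1 at 6.0 months lay just above replicate 1 at 1.5 months. With TMM, small subunit sums of 709, 537 and 717 CPM at 6.0 months lay just below the 718, 774 and 852 CPM at 1.5 months. Every 6.0-month library had a higher TMM factor than every 1.5-month library, which lowers the 6.0-month levels relative to library totals. The sums and the orders of the means were not recomputed on library totals, so this narrow gap is not shown to hold there. On library totals the members' median difference between these ages was -0.095, against -0.26 with TMM.

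Large and small subunit genes kept nearly the same proportion in every library. Their summed CPM stood in a ratio of 1.85 ± 0.020 at 1.5 months, 1.82 ± 0.052 at 3.0 months, 1.84 ± 0.030 at 4.5 months and 1.82 ± 0.063 at 6.0 months (SD, n = 3 each). Single libraries ranged from 1.76 in replicate 1 at 3.0 months to 1.89 in replicate 1 at 6.0 months. These sums are not corrected for gene length, so the ratio describes reads and not molecules. Each gene was also centred on its own mean log2 CPM over the 12 libraries, and the median of the large subunit genes then differed from that of the small subunit genes by at most 0.069 in any library. The medians of the libraries took up 67.6% of the members' summed squares about their own means. The 74 genes therefore do not give 74 separate readings of age.

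**Figure D1:**
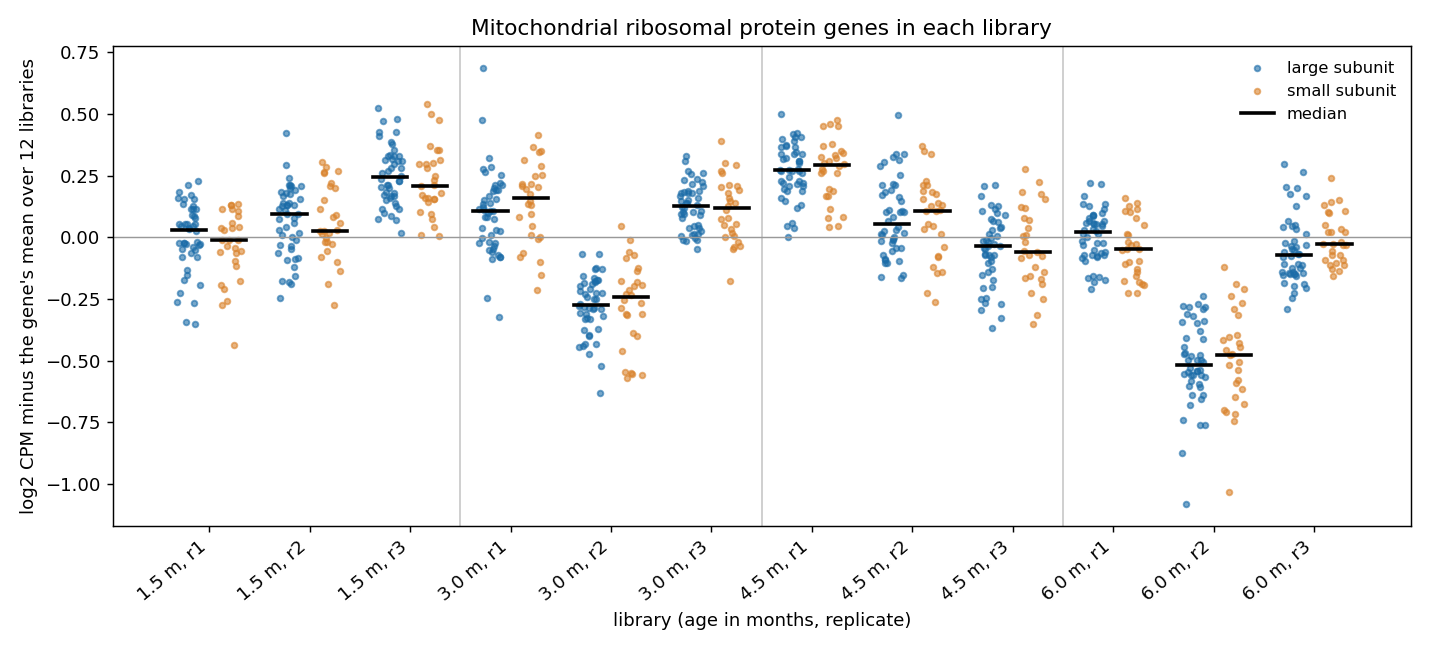
Log2 CPM of each member minus its own mean over 12 libraries (vertical axis), by library (horizontal axis, age in months and replicate); each point is 1 gene, blue for the 46 large and orange for the 28 small subunit genes, and black lines are medians. Both subunits sit lowest in replicate 2 at 6.0 months, with medians of -0.52 (large) and -0.48 (small), next lowest in replicate 2 at 3.0 months, and highest in replicate 1 at 4.5 months, with medians of 0.27 and 0.29.

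Fish of the same age differed widely. In replicate 2 at 6.0 months all 74 members lay below their own mean, and 64 had their lowest level of the 12 libraries there. In replicate 2 at 3.0 months 73 lay below their mean and 9 had their lowest level. In replicate 1 at 4.5 months and replicate 3 at 1.5 months no member lay below its mean, and these libraries held the highest level of 31 and 19 members. The other 6.0-month libraries were near the middle: the median of all members was -0.017 in replicate 1 and -0.054 in replicate 3, against -0.50 in replicate 2.

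The same libraries stood out in other gene groups. Cytosolic ribosomal protein genes, 67 of them, build the other ribosome of the cell and summed to 42529, 22531 and 36720 CPM at 6.0 months, against 36952, 45693 and 48582 CPM at 1.5 months. RPE markers summed to 5271, 2607 and 4984 CPM at 6.0 months, against 4816, 5694 and 8294 CPM at 1.5 months. Replicate 2 was the lowest at 6.0 months in both groups. It was also the lowest at 3.0 months, with 16586 CPM of cytosolic ribosomal and 2344 CPM of RPE transcripts, against 35733 to 38867 CPM and 4588 to 5081 CPM in the other fish of that age. The libraries with the most RPE transcripts, replicate 3 at 1.5 months (8294 CPM) and replicate 1 at 4.5 months (6847 CPM), were those in which most members peaked. Replicates 2 and 3 at 4.5 months departed from this order. They held 3180 and 3242.5 CPM of RPE and 22767 and 21570 CPM of cytosolic ribosomal transcripts. Yet the members' medians there were 0.092 and -0.041, against -0.26 in replicate 2 at 3.0 months, and 11 members peaked in replicate 2 at 4.5 months. Cone markers, too, had their lowest sums in replicate 2 at 6.0 months (16133 CPM) and replicate 2 at 3.0 months (20320.0 CPM). Rod markers differed from that order: they were lowest in replicates 2 and 1 at 6.0 months (3051 and 3593 CPM), and replicate 2 at 3.0 months held 6921 CPM, the most of its age.

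Some cell type markers passed the test between 6.0 and 1.5 months in edgeR, where 2.78% of all tested genes passed. These marker calls were not repeated with libraries left out or with other scalings. Calls over all genes in that comparison, 575 with all libraries, ran from 8 to 1184 with single libraries left out. They were 0 without the 3 libraries with lens RNA. Lower at 6.0 months were 2 of 7 cone markers (list median -0.63 on the log2 scale), 1 of 7 rod markers (-0.88), 1 of 6 RPE markers (-0.52) and 2 of 5 oligodendrocyte markers (-2.81). Higher were 2 of 5 microglia markers (1.92), ptprc and csf1ra. Of the rod markers 2 had differences above 0, nrl (0.22) and a pde6b entry under a locus number (0.31). Rod markers summed to 3593, 3051 and 4987 CPM at 6.0 months, against 8372, 6023 and 6780 CPM at 1.5 months, without overlap. The RPE marker that passed was tyrp1b, with a median of 7.10 CPM, and the RPE sums of both ages overlapped. Cone markers summed to 24239, 16133 and 22237 CPM at 6.0 months, against 31294, 30632 and 29937 CPM at 1.5 months, and the ages did not overlap. Oligodendrocyte markers summed to 68.7, 44.0 and 115 CPM at 6.0 months, against 193, 645 and 382 CPM at 1.5 months, again without overlap. The 5 microglia markers summed to 118, 99.3 and 107 CPM at 6.0 months, against 85.4, 101.2 and 94.2 CPM at 1.5 months, and the ages overlapped. Most of this was aif1l, the 1 marker of the list with a difference below 0 (-0.11 ± 0.22). The other 4 summed to 23.1, 43.3 and 18.9 CPM at 6.0 months, against 8.03, 9.01 and 5.71 CPM at 1.5 months, and replicate 2 at 6.0 months, where the members were lowest, was the highest of all libraries. Between 6.0 and 4.5 months 2 cone (-0.87) and 2 rod markers (-1.06) passed and were lower, while no RPE, oligodendrocyte or microglia marker passed. In that comparison 0.599% of all tested genes passed, and 0 to 1137 genes with single libraries left out. No tested marker of these 5 lists was at 0 in any library. The part of tissue composition in the members' levels was not tested.

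**Figure D2:**
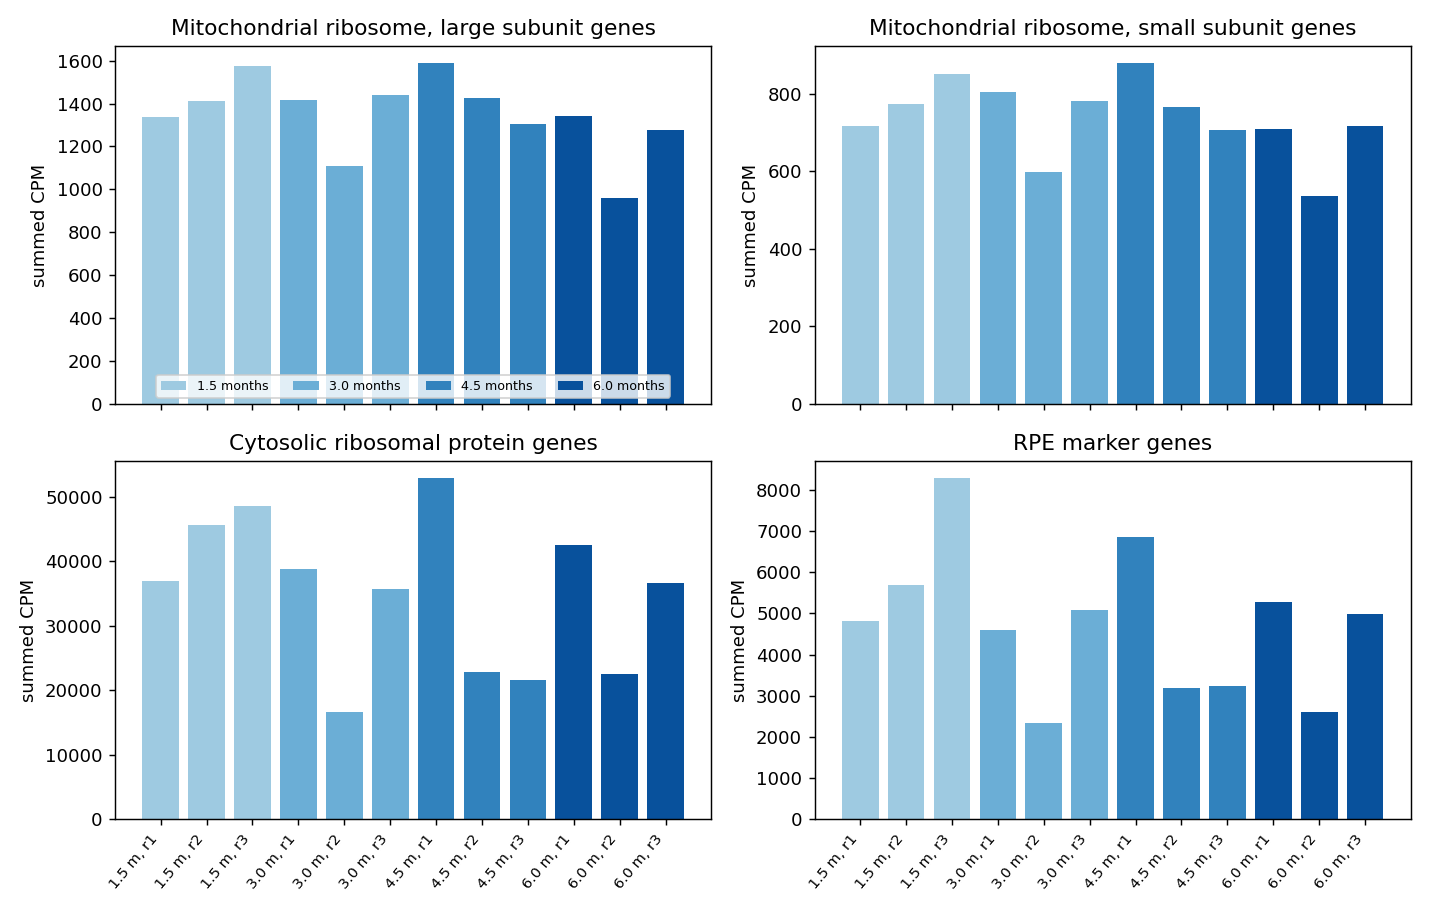
Summed CPM (vertical axes, from 0) in each of 12 libraries (horizontal axes, age in months and replicate) for large subunit, small subunit, cytosolic ribosomal protein and RPE marker genes; darker bars are older fish. All 4 groups are low in replicate 2 at 3.0 and at 6.0 months, while replicates 2 and 3 at 4.5 months are low in the lower panels (22767 and 21570 CPM of cytosolic ribosomal transcripts).

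Tested one by one between 6.0 and 1.5 months with edgeR's quasi-likelihood test, 0 of 74 members passed at an adjusted p under 0.05, where 2.78% of all tested genes passed. At an unadjusted p under 0.05, 20.4% of all tested genes differed in either direction. Of the 20717 tested genes 1937 were lower and 2296 higher at 6.0 months at that p. Among the 14148 genes averaging at least 5 CPM it was 1617 lower and 1331 higher. The members' count was 21 of 74 (28.4%), all lower at 6.0 months. That count was 7 without replicate 2 at 6.0 months, 7 without replicate 3 at 1.5 months and 1 with library totals in place of TMM. For unadjusted counts under such alternatives, here and below, the share over all tested genes was not counted. They therefore do not show whether the members moved apart from all genes. In 24 members (32.4%), 15 large and 9 small, all 3 fish of 6.0 months lay below all 3 of 1.5 months, against 14.7% of tested genes. On library totals 10 members were so separated, against 5.67% of tested genes. In no member did they lie above, on either scale. On library totals 27.5% of tested genes lay above, and with TMM that share was not counted. DESeq2 in place of edgeR passed 5 members (6.76%), mrpl3, mrpl4, mrpl30, mrpl38 and mrpl46, against 9.22% of tested genes. The typical member had a standard error of 0.17 on the log2 scale and needed a difference of 0.71 to pass in edgeR (0.41 to 1.44 over the members).

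**Figure D3:**
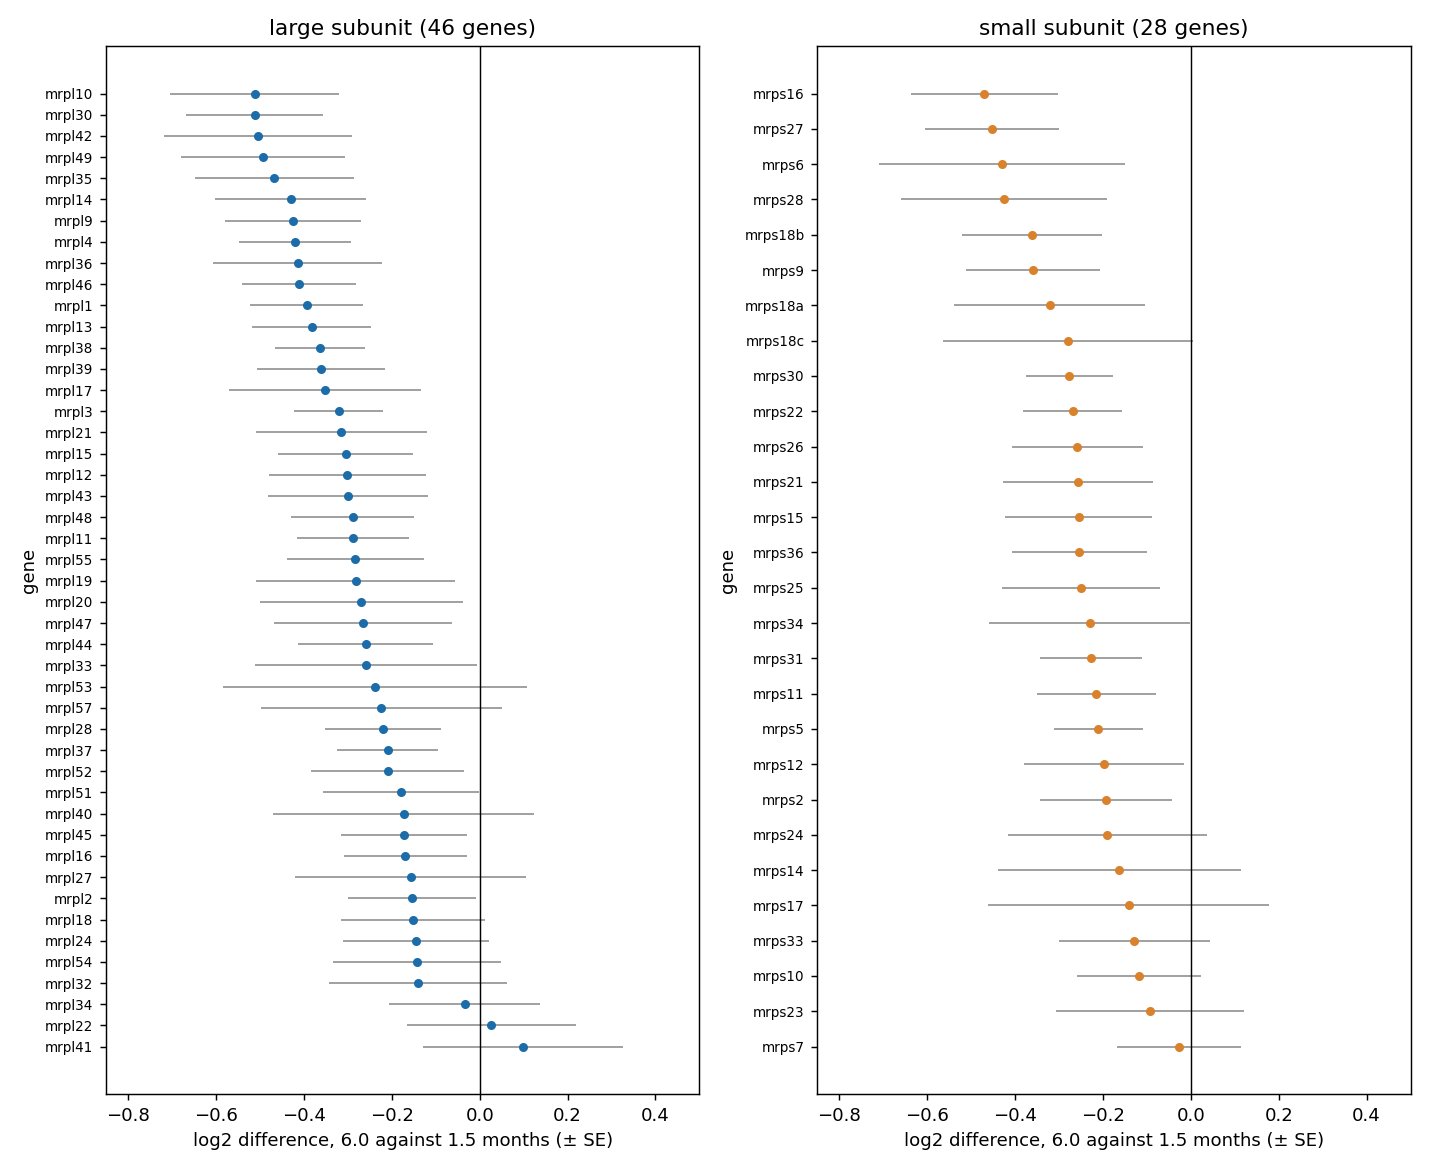
Log2 difference between 6.0 and 1.5 months (horizontal axis, point ± SE from edgeR, 3 fish per age) for each member (vertical axis), large subunit left and small subunit right, sorted by size. Large subunit genes run from -0.51 (mrpl10) to 0.099 (mrpl41) and small subunit genes from -0.47 (mrps16) to -0.027 (mrps7); none passed the test.

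Among proteins of the large subunit core, mrpl3 and mrpl4 are counterparts of bacterial proteins that bind the ribosomal RNA early in assembly, and mrpl4 lines the exit tunnel. The level of mrpl3 was 44.2, 39.8 and 41.8 CPM at 1.5 months, 37.6, 37.9 and 39.6 CPM at 3.0 months, 44.3, 48.5 and 46.0 CPM at 4.5 months, and 34.4, 29.9 and 36.4 CPM at 6.0 months. Its 3 values at 6.0 months lay below all 9 of the younger ages, and those at 4.5 months lay above all 6 of the 3.0- and 6.0-month fish. The log2 difference of mrpl3 was -0.32 ± 0.10 (SE) between 6.0 and 1.5 months (edgeR adjusted p = 0.108) and -0.46 ± 0.10 between 6.0 and 4.5 months (adjusted p = 0.0571). For mrpl4 the levels were 39.7, 35.4 and 41.2 CPM at 1.5 months, 34.2, 31.5 and 35.4 CPM at 3.0 months, 43.0, 45.0 and 41.2 CPM at 4.5 months, and 31.4, 23.5 and 32.0 CPM at 6.0 months. The 6.0- and 1.5-month fish did not overlap, while 1 fish of 6.0 months lay above 1 of 3.0 months. Between 6.0 and 1.5 months mrpl4 differed by -0.42 ± 0.13 (edgeR adjusted p = 0.0969), and between 6.0 and 4.5 months by -0.57 ± 0.13 (adjusted p = 0.0574). In the test across all 4 ages mrpl4 and mrpl3 had the lowest adjusted p of the members, 0.0785 and 0.0804. The third core member, mrpl2, whose bacterial counterpart sits at the peptidyl transferase centre, averaged 37.9 ± 4.52 CPM at 6.0 months and 42.1 ± 4.69 CPM at 1.5 months (SD, n = 3 each), a log2 difference of -0.15 ± 0.15 (edgeR adjusted p = 0.587), and its groups overlapped. That of mrpl2 was 0.014 with library totals in place of TMM.

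Members of the central protuberance and its surroundings included mrpl38 and mrpl46, which bacteria lack; both are named because of their values. The level of mrpl38 was 47.2, 47.1 and 44.8 CPM at 1.5 months, 43.1, 35.9 and 39.4 CPM at 3.0 months, 40.8, 41.8 and 42.8 CPM at 4.5 months, and 39.1, 33.2 and 35.8 CPM at 6.0 months. Every 6.0-month fish lay below every fish of 1.5 and 4.5 months, and the 3.0-month fish overlapped those of 4.5 and 6.0 months. Its difference between 6.0 and 1.5 months was -0.36 ± 0.10, with the lowest adjusted p of any member in that comparison (edgeR, 0.0789). For mrpl46 the mean was 16.3 ± 2.23 CPM at 6.0 months and 21.7 ± 1.06 CPM at 1.5 months (SD, n = 3 each), with no overlap and a log2 difference of -0.41 ± 0.13 (edgeR adjusted p = 0.108). The genes mrps11 and mrpl46 are neighbours in the RefSeq gene order of assembly NfurGRZ-RIMD1, the sole pair of members that are. For mrps11, a platform protein of the small subunit, the difference was -0.22 ± 0.14 (edgeR adjusted p = 0.395).

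The stalk of the large subunit, which recruits translation factors, is built of mrpl10 and mrpl12 on a base that holds mrpl11. Of all members, mrpl10 had the most negative difference between 6.0 and 1.5 months. Its level was 41.7, 51.0 and 52.7 CPM at 1.5 months, 37.1, 29.3 and 40.6 CPM at 3.0 months, 45.6, 33.9 and 32.0 CPM at 4.5 months, and 39.5, 25.8 and 36.7 CPM at 6.0 months. The 1.5-month fish lay above all fish of 3.0 and 6.0 months, and 1 fish of 4.5 months reached into their range. The log2 difference was -0.51 ± 0.19 between 6.0 and 1.5 months (edgeR adjusted p = 0.164) and -0.44 ± 0.19 between 3.0 and 1.5 months (adjusted p = 0.378). In contrast to mrpl10, mrpl12 was highest at 4.5 months: it averaged 51.1 ± 5.94 CPM at 1.5 months, 48.0 ± 4.90 CPM at 3.0 months, 57.1 ± 4.82 CPM at 4.5 months and 41.4 ± 10.7 CPM at 6.0 months (SD, n = 3 each). At 6.0 months its fish measured 47.8, 29.1 and 47.5 CPM, and replicate 2 alone lay below the range of the 1.5-month fish. For mrpl11 the fish measured 23.9, 20.8 and 24.8 CPM at 6.0 months, against 27.4, 26.7 and 30.8 CPM at 1.5 months, without overlap, and the log2 difference was -0.29 ± 0.13 (edgeR adjusted p = 0.229).

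Further large subunit genes at the negative end were mrpl30, mrpl42 and mrpl49. The level of mrpl30, which has a counterpart in bacteria, was 24.5, 24.1 and 29.2 CPM at 1.5 months, 24.1, 20.1 and 24.9 CPM at 3.0 months, 25.6, 20.5 and 19.8 CPM at 4.5 months, and 19.5, 14.8 and 20.3 CPM at 6.0 months. Its 6.0-month fish lay below all 1.5-month fish, and its mean was lower at each later age. Between 6.0 and 1.5 months mrpl30 differed by -0.51 ± 0.16 (edgeR adjusted p = 0.0977), and its slope was -0.11 ± 0.033 per month of age (adjusted p = 0.118, the lowest of the members). The differences were -0.50 ± 0.21 for mrpl42 (edgeR adjusted p = 0.213) and -0.49 ± 0.19 for mrpl49 (adjusted p = 0.166), both without a bacterial counterpart. The fish of both ages overlapped in mrpl49, where replicate 1 at 6.0 months (25.8 CPM) lay above replicate 1 at 1.5 months (25.6 CPM).

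At the other end of the large subunit stood mrpl41, mrpl22, mrpl34 and mrpl32. For mrpl41 the level was 29.8, 36.2 and 42.4 CPM at 1.5 months, 46.2, 27.3 and 43.1 CPM at 3.0 months, 47.9, 38.3 and 35.3 CPM at 4.5 months, and 44.1, 28.5 and 43.6 CPM at 6.0 months. The ages overlapped throughout, and replicate 2 was the lowest at both 3.0 and 6.0 months. Its log2 difference between 6.0 and 1.5 months was 0.099 ± 0.23 (edgeR adjusted p = 0.838). The exit tunnel protein mrpl22 differed by 0.026 ± 0.19, mrpl34 by -0.034 ± 0.17 and mrpl32, which the m-AAA protease trims after import, by -0.14 ± 0.20 (edgeR adjusted p = 0.953, 0.931 and 0.734). In each of these 4 genes the sign between 6.0 and 1.5 months turned when single libraries were left out. Of the proteins at the tunnel exit and beside it, mrpl45, which anchors the ribosome to the inner membrane, averaged 45.9 ± 6.63 CPM at 6.0 months and 51.7 ± 4.42 CPM at 1.5 months (SD, n = 3 each; log2 difference -0.17 ± 0.14), and the groups overlapped. For mrpl44, which has a fold related to RNase III, the means were 29.6 ± 2.81 CPM, 31.4 ± 3.81 CPM, 36.3 ± 5.37 CPM and 24.8 ± 3.95 CPM at the 4 ages from youngest to oldest, with a log2 difference of -0.55 ± 0.15 between 6.0 and 4.5 months (edgeR adjusted p = 0.107).

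**Figure D4:**
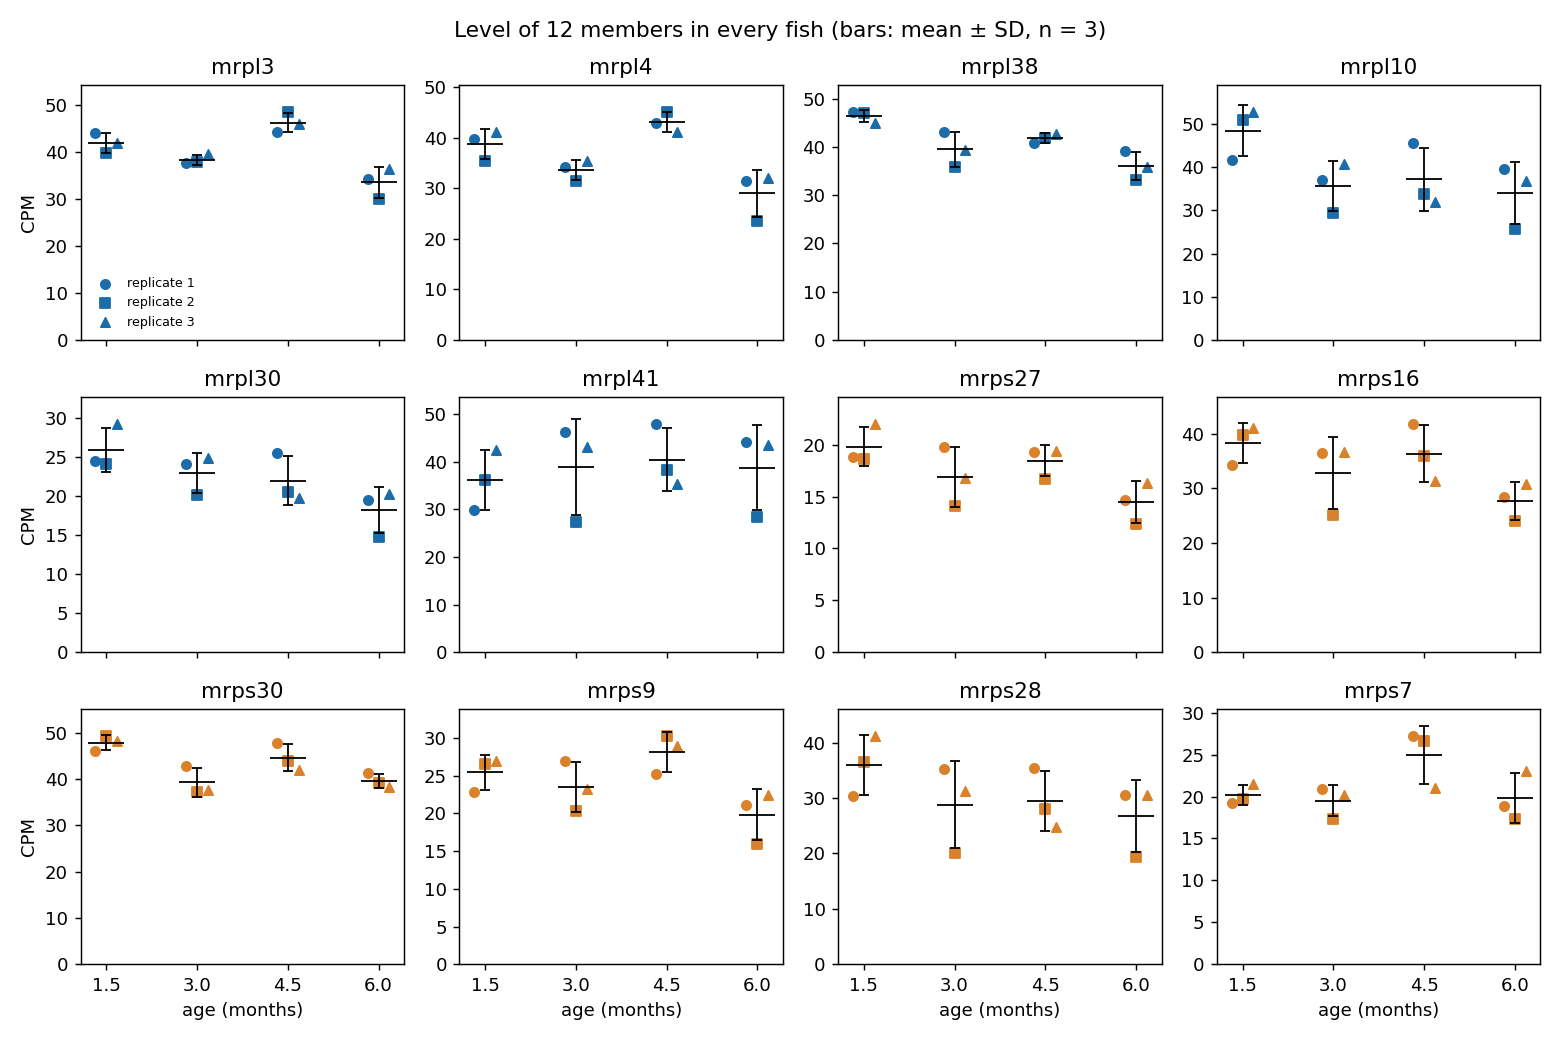
CPM (vertical axes, from 0) of 12 members in every fish by age in months (horizontal axes), in blue for mrpl and orange for mrps names. Symbols mark replicates 1 to 3, and the labels do not say that these numbers link fish of different ages. Black bars are mean ± SD of 3 fish. Replicate 2 at 6.0 months is the lowest of its age in 11 of the 12 genes, with 23.5 CPM of mrpl4 against 31.4 and 32.0 CPM in the other 6.0-month fish; mrps30 is the exception.

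In the small subunit, the most negative differences were those of mrps16, mrps27, mrps6 and mrps28. The level of mrps16, whose bacterial counterpart takes part in assembly, was 34.2, 39.8 and 41.0 CPM at 1.5 months, 36.4, 25.2 and 36.7 CPM at 3.0 months, 41.7, 35.9 and 31.4 CPM at 4.5 months, and 28.4, 23.9 and 30.7 CPM at 6.0 months. All 6.0-month fish lay below all fish of 1.5 and 4.5 months, and replicate 2 at 3.0 months lay among them. Between 6.0 and 1.5 months mrps16 differed by -0.47 ± 0.17 (edgeR adjusted p = 0.145). For mrps27, a pentatricopeptide repeat protein that binds RNA, the levels were 18.8, 18.6 and 22.0 CPM at 1.5 months, 19.8, 14.1 and 16.8 CPM at 3.0 months, 19.3, 16.7 and 19.4 CPM at 4.5 months, and 14.7, 12.3 and 16.3 CPM at 6.0 months. Its 6.0-month fish too lay below all fish of 1.5 and 4.5 months, and the difference from 1.5 months was -0.45 ± 0.15, with the lowest adjusted p of the small subunit (edgeR, 0.126). In mrps6, a platform protein (-0.43 ± 0.28), and mrps28 (-0.43 ± 0.24) the fish of 6.0 and 1.5 months overlapped (edgeR adjusted p = 0.414 and 0.335). In mrps28, replicate 2 measured 19.3 CPM at 6.0 months and 20.1 CPM at 3.0 months, and the other fish of these ages 30.6 to 35.2 CPM.

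The decoding centre of the small subunit holds mrps12 and mrps5. The level of mrps5 was 29.2, 27.0 and 29.7 CPM at 6.0 months, against 32.1, 32.5 and 34.9 CPM at 1.5 months, without overlap (log2 difference -0.21 ± 0.10, edgeR adjusted p = 0.271). For mrps12 the values were 21.3, 13.6 and 21.1 CPM at 6.0 months, against 21.3, 21.0 and 22.0 CPM at 1.5 months, and only replicate 2 was apart (log2 difference -0.20 ± 0.18, adjusted p = 0.576). Of the head proteins, mrps9 averaged 19.8 ± 3.42 CPM at 6.0 months and 25.4 ± 2.27 CPM at 1.5 months (SD, n = 3 each), a difference of -0.36 ± 0.15 without overlap (edgeR adjusted p = 0.212). Closer to 0 were mrps7 (-0.027 ± 0.14) and mrps10 (-0.12 ± 0.14), which also lie in the head (edgeR adjusted p = 0.934 and 0.671). The head holds further proteins, which were not compared as a group. Also near 0 were mrps23 (-0.092 ± 0.21) and mrps33 (-0.13 ± 0.17), proteins found in mitochondria and not in bacteria (edgeR adjusted p = 0.84 and 0.711). The signs of mrps7, mrps10, mrps23 and mrps33 turned with library totals in place of TMM. For mrps15, which binds the small ribosomal RNA, the difference was -0.26 ± 0.17 (edgeR adjusted p = 0.416).

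For 3 members the name and the place in the mammalian structure differ: mrps18a and mrps30 sit in the large subunit, and mrps36 belongs to the 2-oxoglutarate dehydrogenase complex of the citric acid cycle. The level of mrps30 was 46.1, 49.2 and 48.3 CPM at 1.5 months, 42.9, 37.3 and 37.7 CPM at 3.0 months, 47.9, 44.0 and 42.0 CPM at 4.5 months, and 41.2, 39.2 and 38.2 CPM at 6.0 months. Fish of 6.0 months lay below those of 1.5 and 4.5 months and among those of 3.0 months, and mrps30 differed by -0.28 ± 0.099 between 6.0 and 1.5 months (edgeR adjusted p = 0.146). It varied little within an age, with SDs of 1.53 to 3.17 CPM. For mrps36 the means were 24.6 ± 4.03 CPM at 6.0 months and 29.3 ± 1.50 CPM at 1.5 months (SD, n = 3 each; difference -0.25 ± 0.15, edgeR adjusted p = 0.376). The bacterial S18 protein has 3 counterparts, and their differences between 6.0 and 1.5 months were -0.32 ± 0.22 (mrps18a), -0.36 ± 0.16 (mrps18b) and -0.28 ± 0.28 (mrps18c). How reads shared by such relatives were counted is not given in the sources used here. With these members placed by structure, the large subunit (48 genes) had a median of -0.28 and the small subunit (25 genes) one of -0.23, and the ratio of their sums averaged 2.22 ± 0.078 at 6.0 months and 2.26 ± 0.028 at 1.5 months (SD, n = 3 each).

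Comparisons of successive ages share fish, so they are not separate evidence. Between 6.0 and 4.5 months 73 of 74 members lay below 0, all but mrpl27, with medians of -0.27 (large) and -0.28 (small), against a median of 0.0041 over all tested genes. Among the 14148 genes averaging at least 5 CPM the median was -0.045 and 56.9% lay below 0. In edgeR 0 of 74 passed (0.599% of all tested genes did). DESeq2 passed 6 (8.11%, against 5.83% of tested genes), namely mrpl3, mrpl4, mrpl13, mrpl44, mrpl46 and mrpl48. In edgeR 22 members had an unadjusted p under 0.05 (29.7%, against 16.6% of tested genes in either direction). All 22 were lower at 6.0 months, as were 1811 of the 20717 tested genes at that p, while 1618 were higher. Of the 14148 genes averaging at least 5 CPM 1711 were lower and 1059 higher at that p. In 24 members (32.4%) all 6.0-month fish lay below all 4.5-month fish, against 11.1% of tested genes; on library totals it was 11 members, against 4.44%. The members' median was -0.16 without replicate 2 at 6.0 months, and the unadjusted count was then 7. It was 13 without replicate 1 and 12 without replicate 2 at 4.5 months. Without replicate 1 at 4.5 months, edgeR passed 2 members (2.70%), mrpl3 and mrpl4, against 5.40% of tested genes. With library totals the median was -0.15 and the unadjusted count 8. With replicate 1 as the sole 4.5-month library, the 2 "Resub" libraries left out, the median was -0.45. Of the 67 cytosolic ribosomal protein genes 59 lay above 0 in the same comparison, with a median of 0.069, and none passed; the difference between both kinds of ribosome was not tested. Between 6.0 and 1.5 months all 67 lay below 0, with a median of -0.36 and a median SE of 0.39, and none passed.

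Between 4.5 and 3.0 months 61 of 74 members lay above 0, with medians of 0.11 (large) and 0.10 (small), against 0.024 over all tested genes. Of the 14148 genes averaging at least 5 CPM 8224 lay above 0, with a median of 0.051. Again 0 members passed in edgeR (0.319% of tested genes) or in DESeq2 (4.51%), and 6 had an unadjusted p under 0.05 (8.11%, against 14.7% in either direction). All 6 were higher at 4.5 months, as were 1384 of the 20717 tested genes at that p, while 1668 were lower. All 4.5-month fish lay above all 3.0-month fish in 10 members (13.5%, against 9.31%), among them mrps7 with 27.2, 26.7 and 21.0 CPM at 4.5 months, against 20.9, 17.4 and 20.2 CPM at 3.0 months. With library totals it was 7 members, against 5.67%. The unadjusted count was 0 without replicate 2 at 4.5 months, 2 without replicate 2 at 3.0 months and 2 with library totals, without the "Resub" libraries or without those with lens RNA.

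Between 3.0 and 1.5 months 58 of 74 lay below 0, with medians of -0.12 (large) and -0.095 (small), against -0.011 over all tested genes. Among the 14148 genes averaging at least 5 CPM the median was -0.027 and 54.6% lay below 0. There too 0 members passed in edgeR (0.0193% of tested genes) or in DESeq2 (2.22%), and 3 had an unadjusted p under 0.05 (4.05%, against 12.6% in either direction). All 3 were lower at 3.0 months, as were 1040 of the 20717 tested genes at that p, while 1565 were higher. In 10 members (13.5%, against 9.81%) the ages did not overlap, all lower at 3.0 months. With library totals 2 were so separated (against 4.39%) and 1 lay higher (against 18.4% of tested genes). On that scale 40 of 74 lay below 0, the members' median was -0.0084 against 0.10 over all tested genes, and 0 had an unadjusted p under 0.05. That count was 1 without replicate 2 or 3 at 1.5 months, replicate 2 at 3.0 months or the libraries with lens RNA, and 6 without replicate 3 at 3.0 months.

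Both comparisons with 3.0 months moved most, among single libraries left out, with replicate 2 of that age: without it the members' median was -0.00082 between 4.5 and 3.0 months (0.11 with all libraries) and -0.0062 between 3.0 and 1.5 months (-0.12 with all). The median between 4.5 and 3.0 months was 0.022 without replicate 1 at 4.5 months, 0.013 without the libraries with lens RNA and 0.045 with library totals. It was higher, at 0.18, without replicate 1 at 3.0 months, 0.17 without replicate 3 at 3.0 months, 0.18 without replicate 3 at 4.5 months and 0.28 without the "Resub" libraries. The median between 3.0 and 1.5 months was -0.038 without replicate 3 at 1.5 months. It was further from 0, at -0.17, without replicate 1 at 1.5 months, without replicate 1 at 3.0 months and without replicate 3 at 3.0 months.

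**Figure D5:**
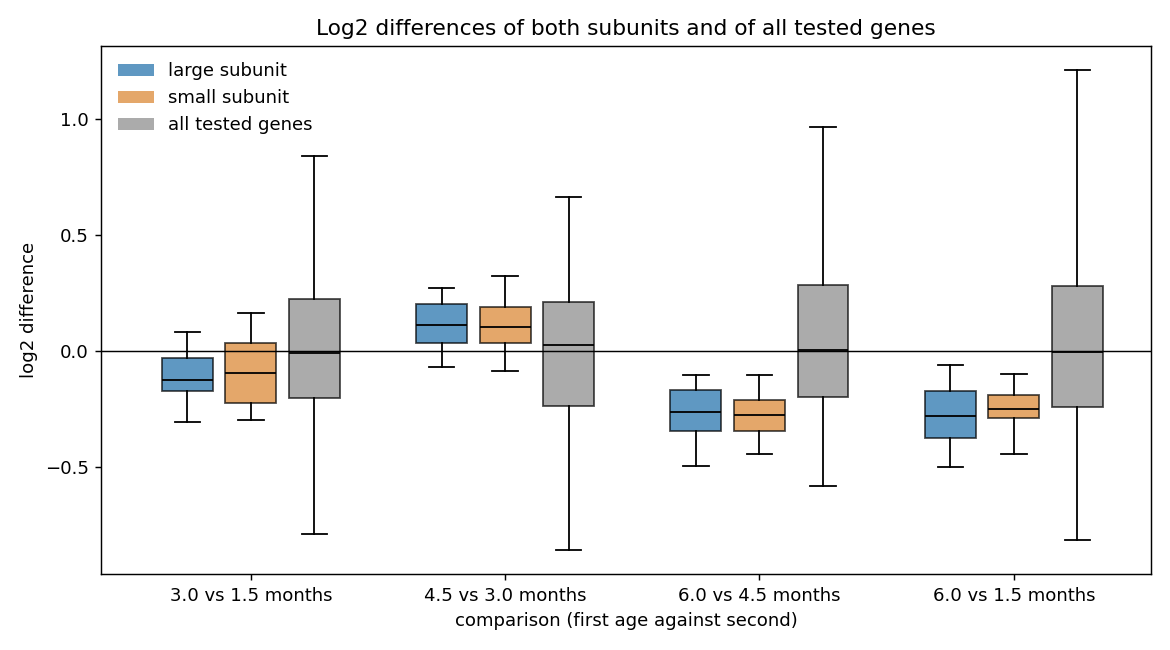
Log2 difference (vertical axis) in 4 comparisons of ages (horizontal axis, first age against second) for large subunit genes, small subunit genes and all 20717 tested genes; boxes are quartiles with the median, whiskers the 5th and 95th percentiles. Both subunits lie below the median of all tested genes between 6.0 and 4.5 months (medians -0.27 and -0.28) and between 6.0 and 1.5 months (-0.28 and -0.25), within the spread of all genes.

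Over all 4 ages at once, 0 members passed in edgeR (2.21% of tested genes passed), 12 had an unadjusted p under 0.05 (16.2%, against 22.9%) and DESeq2 passed 5 (6.76%, against 15.4%): mrpl3, mrpl4, mrpl13, mrpl38 and mrpl46. The unadjusted count was 5 without replicate 2 at 4.5 months, 6 without replicate 2 at 1.5 or at 6.0 months, 7 without replicate 3 at 1.5 months and 3 with library totals. Without replicate 1 at 4.5 months edgeR passed 1 member (1.35%), mrpl3, against 11.5% of tested genes. Taken as a slope per month of age, 0 passed in edgeR (1.17% of tested genes passed) and DESeq2 passed 1 (1.35%, against 5.5%), mrpl30. In edgeR 11 members had an unadjusted p under 0.05 (14.9%, against 17.2% in either direction). All 11 slopes were below 0, as were those of 1672 of the 20717 tested genes at that p, while 1885 were above 0. The median slope of the members was -0.044 per month on the log2 scale, with 70 of 74 below 0, and it was -0.014 with 47 below 0 without replicate 2 at 6.0 months. The unadjusted count for the slope was then 1, and it was 2 without replicate 3 at 1.5 months, 6 without replicate 3 at 6.0 months and 2 with library totals. With library totals the median slope was -0.014 with 52 below 0, against 0.032 over all tested genes, and without the 3 libraries with lens RNA it was -0.075.

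Proteins of the same ribosome deposited under other names gave a mixed picture. Of 6 such genes none passed in edgeR between 6.0 and 1.5 months, and 5 lay below 0, with a median of -0.17. The pentatricopeptide protein ptcd3 of the small subunit differed by -0.45 ± 0.14 (adjusted p = 0.0986), and dap3, a small subunit protein that binds GTP, by -0.18 ± 0.11 (edgeR adjusted p = 0.372). The exception was ict1, a peptidyl-tRNA hydrolase built into the large subunit and also called MRPL58. It averaged 9.68 CPM at 6.0 months and 6.79 CPM at 1.5 months, a difference of 0.51 ± 0.16 (edgeR adjusted p = 0.102). A further 2 entries deposited under locus numbers, named mrps35 and mrpl23 in RefSeq, differed by -0.26 ± 0.12 and -0.20 ± 0.18 (edgeR adjusted p = 0.249 and 0.568).

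Other genes of mitochondrial gene expression lay nearer to 0 between 6.0 and 1.5 months, and none passed in edgeR in any of the 6 tests. Of 21 tested genes for ribosome assembly and rRNA modification, 15 lay below 0 with a median of -0.10. Their lowest adjusted p was that of mpv17l2, an assembly factor, in the test of any age (edgeR, 0.0593). Of 10 translation factors, 9 lay below 0 with a median of -0.12, and tufm, which brings aminoacyl-tRNAs to the ribosome, averaged 95.3 CPM at 6.0 months and 126 CPM at 1.5 months (log2 difference -0.40 ± 0.11, edgeR adjusted p = 0.0747). Of 17 genes for transcription, replication and handling of mitochondrial RNA, 10 lay below 0 with a median of -0.18; lrpprc, which stabilises mitochondrial messenger RNAs, differed by -0.43 ± 0.12 (edgeR adjusted p = 0.0802). Of 14 mitochondrial aminoacyl-tRNA synthetases, which charge the tRNAs, 8 lay below 0 with a median of -0.0050. Between 6.0 and 4.5 months 20 of the 21 assembly genes, 10 of 10 translation factors, 15 of 17 transcription and RNA genes and 13 of 14 synthetases lay below 0, with medians of -0.23, -0.28, -0.24 and -0.26. Of all tested genes averaging at least 5 CPM, 56.9% lay below 0 in that comparison, with a median of -0.045.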

How the data were processed

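RNA of retina with attached RPE from 12 male killifish, 1 library per fish, was made into Nextera XT libraries and sequenced from both ends on 1 NovaSeq S4 lane, per the labels' protocols. The authors deposited raw counts of reads per gene for 25122 genes; the aligner, counting program, annotation and genome build are not given in the sources used here, so no coordinates or sequences are printed. Among deposited counts from 1 to 20, 73.2% were even, so mates may have been counted separately, which leaves fewer independent fragments than reads.

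The count model was edgeR 4.0.16 (R 4.3.3): filterByExpr by age (minimum count 10, minimum total 15; 20717 genes and 99.98% of counts kept), TMM, robust dispersions and quasi-likelihood F-tests of any age difference, the slope on age in months and 4 pairs of ages, in fits of all 12 libraries. The threshold was an adjusted p under 0.05 (Benjamini-Hochberg, over all tested genes). All 74 members passed the filter. Standard errors are the log2 difference divided by the square root of F. Centred values used log2 CPM with a prior count of 2. Calls were repeated with DESeq2 1.42.0, other scalings, no filter, a replicate block and libraries left out, and the test was checked on simulated data. The labels call the fish biological replicates; 3 against 3 allows no exact permutation p below 0.1, so the gene tests rest on spread shared over ages and genes.

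The members, lists and tests were chosen with earlier results of these data known. Genes named are the 4 highest and 4 lowest differences per subunit (6.0 against 1.5 months, at least 5 CPM) and members with a known place in the ribosome; mrpl13, mrpl27, mrpl38, mrpl46, mrpl48, mrps18b and mrps18c were added after their values were seen. RefSeq symbols (NfurGRZ-RIMD1) matched 72 of the 74 members. Lengths were not used, so levels are not compared between genes. Lists of other mitochondrial genes were matched by deposited name, and cell markers also through RefSeq gene numbers: besides those in the report, 5 Mueller glia markers summed to 1642 to 3220 CPM and 2 erythrocyte markers to 2.56 to 40.7 CPM.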

Additional observations from a re-analysis of the deposited data

How the results depend on the processing

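With DESeq2, 5 members passed for any age difference (6.76%, against 15.4% of tested genes) and 5 between 6.0 and 1.5 months (6.76%, against 9.22%). It passed 1 for the slope (1.35%, against 5.5%) and 6 between 6.0 and 4.5 months (8.11%, against 5.83%). In edgeR 0 of 74 passed, and the cause of this difference between the programs was not tested. Leaving out 1 library at a time gave 0 to 1 members for any age difference, 0 to 2 between 6.0 and 4.5 months and 0 in the other 4 tests. The higher counts were those without replicate 1 at 4.5 months. Without it 11.5% of tested genes passed for any age difference and 5.40% between 6.0 and 4.5 months. Calls over all genes ran from 0 to 196 between 3.0 and 1.5 months and from 2 to 795 between 4.5 and 3.0 months. Further alternatives in edgeR were size factors, no filter, library totals, no libraries with lens RNA and, between 6.0 and 1.5 months, those 6 libraries alone. They passed 0 members in every test. Where almost no gene passed, 0 members does not show a stable result. Without the 3 libraries with lens RNA, 0 of 20926 tested genes passed between 3.0 and 1.5 months and 1 for the slope. The fit without the "Resub" libraries leaves 1 library at 4.5 months, so its calls past the threshold are not counted here. With a replicate block 0 members passed as well, and the medians between 6.0 and 1.5 months were -0.30 (large) and -0.27 (small). Deviations of fish of the same number correlated at -0.32 to 0.30, and 4 of 12 libraries were nearest to their own number. The labels do not say whether the number marks a shared tank, day or brood, and these correlations cannot exclude it. The block changed no member's call, while calls over all genes for any age difference numbered 214 with it and 458 without it. Over single libraries left out, the members' median between 6.0 and 1.5 months ran from -0.34 (without replicate 1 at 6.0 months) to -0.14 (without replicate 2). It was -0.39, with 74 of 74 below 0, without the 3 libraries with lens RNA, and -0.095, with 60 of 74 below 0, with library totals. Calls over all genes between 6.0 and 1.5 months numbered 575 in edgeR, 1911 in DESeq2, 1017 with library totals and 8 to 1184 with single libraries left out. The 8 were those without replicate 3 at 1.5 months, a library with 13.9 CPM of lens markers. Calls numbered 25 without replicate 1 at 1.5 months, which held 53.9 CPM of them. Of the libraries with lens RNA, leaving out replicate 1 at 6.0 months (14547 CPM) gave 9 calls. Leaving out replicate 2 at 1.5 months (768 CPM) gave 33, and leaving out replicate 1 at 4.5 months (1948 CPM) gave 1184. Calls numbered 0 once the 3 libraries holding lens RNA were dropped, which left 2 fish at each of these ages. The part of lens RNA in these counts was not tested.

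The log2 difference between 6.0 and 1.5 months changed sign in 9 of the 34 named genes followed through the alternatives. None of these 9 passed under any alternative. The named genes mrpl27, mrpl48, mrps18b and mrps18c were not followed. With library totals in place of TMM, chosen after the data were seen, it was 0.021 for mrpl32, 0.13 for mrpl34, 0.037 for mrps33, 0.049 for mrps10, 0.074 for mrps23, 0.14 for mrps7 and 0.014 for mrpl2, on a scale where the median over all genes was 0.17. Without the libraries with lens RNA it was -0.026 for mrpl22 and -0.025 for mrpl41. Over single libraries left out it ran from -0.28 to 0.028 for mrpl32, -0.17 to 0.086 for mrpl34, -0.11 to 0.21 for mrpl22, -0.022 to 0.28 for mrpl41, -0.22 to 0.034 for mrps33 and -0.15 to 0.056 for mrps7. With 3 fish per age, a difference of the members' typical size (0.26, against 0.71 needed) was not detectable gene by gene in edgeR.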
